A study of Mus musculus with 4 samples.

Results

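Among single cells sorted from mouse bone marrow, 66 of the 492 wells with at least 500 transcripts carried enough neutrophil granule or myeloid progenitor transcripts to be grouped as myeloid. A well entered the late granulocytic class where S100a8, S100a9, Camp, Ngp, Ltf, Lcn2 and Retnlg together made up at least 3% of its transcripts. It entered the early class where Mpo, Elane, Prtn3, Ctsg, Ly6c2 and F13a1 together made up at least 0.5%, and at least 3 genes of the set had to be present in either case. These values gave 32 late wells, 31 early wells and 3 wells that met both rules, and left 426 other wells. The levels of the 13 genes chose the wells, so every difference between the classes is given as a description and carries no test.

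The cells came from bone marrow of C57BL/6 mice, dissociated with collagenase IV and dispase. All lacked CD51 at their surface, belonged to a fraction labelled TNC (not spelled out) and were sorted as CD44+ or CD44-. CD51 is the integrin alpha V chain and CD44 is a receptor for hyaluronan. One plate of 384 wells carried CD44+ cells only, another CD44- cells only, and each of 2 shared plates had CD44+ cells in its upper rows (A to H) and CD44- cells in its lower rows (I to P). The labels give neither the age nor the number of the mice, so the 3 libraries of each sort (1 sort on 1 plate) may differ by technique alone. Transcripts were counted by SORT-seq, in which single cells are lysed in wells whose primers carry a well barcode and a molecular identifier for each transcript. Early wells held 529 to 65822 transcripts, late wells 519 to 18012, and wells that met both rules 4321 to 30719.

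Neutrophils are made in the marrow from progenitors that pass through a fixed order of granule formation. Promyelocytes fill the primary, or azurophil, granules with myeloperoxidase (Mpo), neutrophil elastase (Elane), proteinase 3 (Prtn3) and cathepsin G (Ctsg). Myelocytes and metamyelocytes fill the secondary granules with lactoferrin (Ltf), cathelicidin (Camp), neutrophilic granule protein (Ngp) and lipocalin 2 (Lcn2). The tertiary granules, with gelatinase (Mmp9), and the cytosolic calprotectin subunits S100a8 and S100a9 follow. Monocytes arise from the same progenitors, and Ly6c2 and the factor XIII A chain F13a1 are among their genes. Transcription factors of the C/EBP and ETS families, among them PU.1 (Spi1, named Sfpi1 in these tables), act in both lineages.

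Prtn3 (79874476-79883174, forward strand) and Elane (79886247-79888215, forward strand) lie next to each other on chromosome 10 of GRCm38. Camp (109847379-109849617, reverse strand), Ngp (110419747-110423012, forward) and Ltf (111019271-111042767, forward) lie on chromosome 9, and S100a8 (90668978-90670035, forward) and S100a9 (90692632-90695721, reverse) on chromosome 3. Because the 2 sets of genes separate the wells, the 250 bases before the start sites were searched on both strands for TTNNGCAA, a short form of the C/EBP motif, and for GAGGAA, the core of many PU.1 sites; the motifs do not overlap each other. RefSeq start sites (GRCm38.p6) were found for all 13 genes. TTNNGCAA was present before 5 of the 7 late genes and 0 of the 6 early genes, and before 9.56% of all 32851 promoters. GAGGAA was present before 6 of the 6 early genes and 3 of the 7 late genes, and before 23.3% of all promoters. Lcn2 and Ltf held both, and Camp held neither. The 6 windows below, from 3 early genes and from the 3 late genes with TTNNGCAA alone, are written 5′ to 3′ on the gene's strand with matches in capitals. They are Mpo (chr11:87793534-87793783), Elane (chr10:79886062-79886311), Prtn3 (chr10:79879417-79879666), Ngp (chr9:110419558-110419807), S100a9 (chr3:90695722-90695971, reverse strand) and Retnlg (chr16:48872358-48872607), and a match describes the sequence and is not evidence of binding.
Mpo: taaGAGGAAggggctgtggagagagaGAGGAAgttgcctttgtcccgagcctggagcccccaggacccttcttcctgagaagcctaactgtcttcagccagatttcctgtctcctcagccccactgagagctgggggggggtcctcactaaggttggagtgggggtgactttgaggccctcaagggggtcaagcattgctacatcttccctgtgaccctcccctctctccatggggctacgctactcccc
Elane: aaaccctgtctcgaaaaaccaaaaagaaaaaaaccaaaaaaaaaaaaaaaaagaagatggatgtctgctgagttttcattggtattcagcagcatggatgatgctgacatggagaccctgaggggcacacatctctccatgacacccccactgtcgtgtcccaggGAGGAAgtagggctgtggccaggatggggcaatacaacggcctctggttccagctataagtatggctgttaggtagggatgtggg
Prtn3: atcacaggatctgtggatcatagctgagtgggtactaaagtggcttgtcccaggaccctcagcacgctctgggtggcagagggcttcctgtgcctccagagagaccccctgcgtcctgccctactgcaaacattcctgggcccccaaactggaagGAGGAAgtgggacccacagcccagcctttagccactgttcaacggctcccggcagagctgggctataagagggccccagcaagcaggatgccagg
Ngp: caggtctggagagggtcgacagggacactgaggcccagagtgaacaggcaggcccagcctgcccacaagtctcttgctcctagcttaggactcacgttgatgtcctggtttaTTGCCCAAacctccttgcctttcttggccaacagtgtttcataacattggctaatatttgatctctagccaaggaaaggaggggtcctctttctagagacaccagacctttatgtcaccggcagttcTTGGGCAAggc
S100a9: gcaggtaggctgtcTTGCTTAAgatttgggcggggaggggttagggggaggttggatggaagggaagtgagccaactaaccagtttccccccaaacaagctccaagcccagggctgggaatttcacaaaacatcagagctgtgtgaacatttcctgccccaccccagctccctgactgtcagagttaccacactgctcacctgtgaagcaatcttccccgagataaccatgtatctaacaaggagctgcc
Retnlg: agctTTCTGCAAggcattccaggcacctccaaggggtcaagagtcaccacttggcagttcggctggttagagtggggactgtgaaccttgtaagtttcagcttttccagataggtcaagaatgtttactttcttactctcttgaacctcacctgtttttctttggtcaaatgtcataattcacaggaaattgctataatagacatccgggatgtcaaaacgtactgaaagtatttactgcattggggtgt

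The levels of the defining genes, which the rule fixed, were as follows. In late wells the late set took 3.47% to 36.3% of transcripts (median 16.4%), and in early wells the early set took 0.508% to 3.83% (median 0.749%). S100a8 and S100a9, which form calprotectin, were present in 32 of 32 late wells at pooled levels of 58472 and 71864 CPM (transcripts of the gene scaled to a fixed total for the class, counts per 1e6). Ngp reached 31621 CPM, Camp 24570, Ltf 11559, Lcn2 10048 and Retnlg, a resistin-like protein, 5449. In early wells the highest of the defining genes was Mpo at 7000 CPM, followed by Prtn3 at 3747, Elane at 3079, Ctsg at 2376, Ly6c2 at 1455 and F13a1 at 1054. Ctsg was absent from the late wells, while Ly6c2 was present in 15 of them at 504 CPM. A transcript is counted once whatever its length, so these levels can be set side by side. Ly6c2 has a near-identical neighbour, Ly6c1, and Chi3l3, described below, has close copies too, so their reads could have been split.

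Near the limits the rule cut through a gap for the late set and through a continuum for the early set. The late wells nearest the limit had 3.47%, 3.58% and 4.395% late set, and the nearest wells outside had 2.18%, 2.15% and 1.88%. For the early set the nearest wells inside had 0.505%, 0.508% and 0.513%, and the nearest outside 0.499%, 0.468% and 0.451%. A further 4 wells passed the early share with fewer than 3 genes of the set and stayed out. The plates reuse the same well barcodes, and 1 well number was myeloid on both single-sort plates and 2 on both shared plates.

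**Figure D1:**
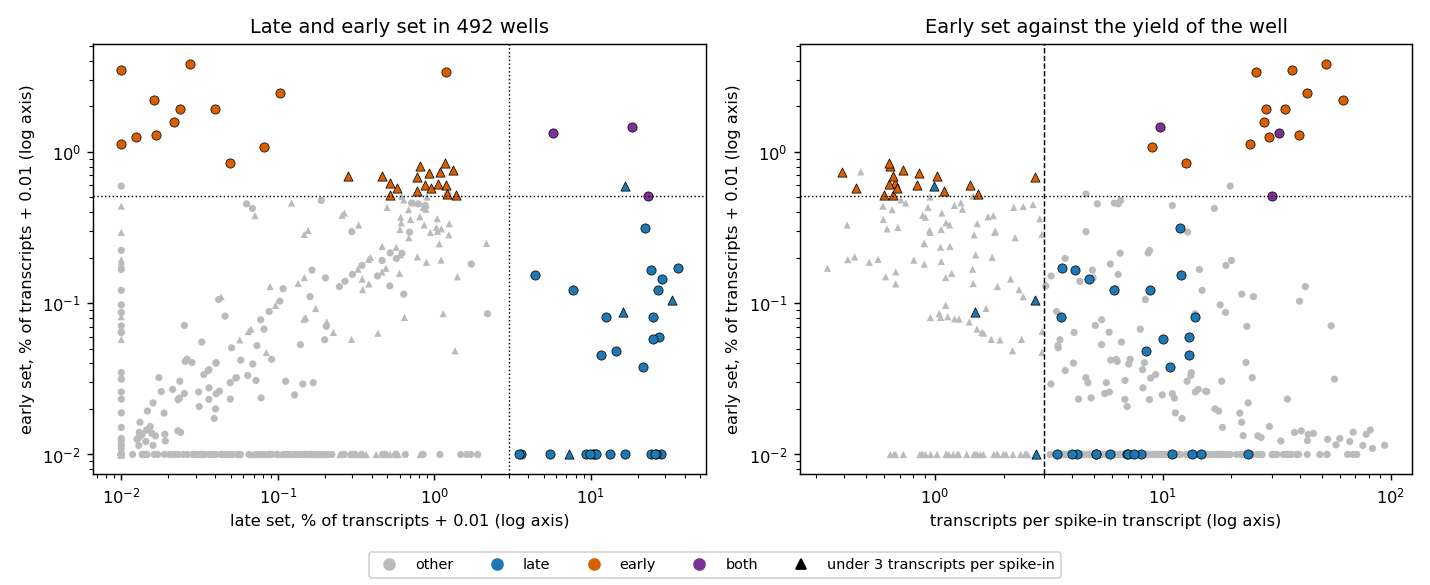
Each point is 1 of 492 wells, with late-set share against early-set share on the left and transcripts per spike-in transcript against early-set share on the right (log axes, 0.01 added to shares, dotted lines at the limits of 3% and 0.5%). The 18 early wells left of the dashed line at 3 transcripts per spike-in transcript lie at 0.508% to 0.833% early set, and the 13 others reach 3.83%.

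The early wells fell into 2 kinds by yield and by the markers beside the rule. Of the 31 early wells, 18 yielded under 3 transcripts per spike-in transcript (0.391 to 2.74), and all 18 were on the first shared plate, 14 in CD44- rows and 4 in CD44+ rows. The limit of 3 was set after the values were seen. These wells rested on 3 to 16 early-set transcripts each (median 5.5), and 18 of 18 also held the late set, at 0.273% to 1.37%. Erythroid markers were found in 17 of them, B cell progenitor markers in 18 and stromal markers in 15. Their pooled shares were 0.880% late set, 0.626% early set, 0.432% erythroid, 0.416% B cell progenitor and 0.162% stromal. Wells of the same plate with 100 to 500 transcripts, too few to count as cells here, held 0.767%, 0.331%, 0.545%, 0.524% and 0.274% of the same sets. The ratio of B cell to erythroid transcripts was 0.962 in both kinds of well, and 0.717 in the plate's 64 other low-yield wells with at least 500 transcripts. Other ratios to erythroid transcripts differed. The late set stood at 2.04 in the 18 wells and 1.41 in the wells below 500, and the stromal set at 0.375 and 0.502. The ratio of early-set to erythroid transcripts was 1.45 in the 18 wells, which were chosen for that set, and 0.607 in the wells below 500. In the 18 wells and in the wells of 100 to 500 transcripts the 5 sets stood within 0.162% to 0.880% of transcripts. Whether each of these 18 wells held a myeloid cell was not tested.

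The other 13 early wells carried a different profile. They yielded 8.96 to 61.6 transcripts per spike-in transcript and held 7 to 1450 early-set transcripts (median 521). Ltf and Retnlg were absent from all 13, and the late set took 0% to 1.18% of their transcripts. Of the 13 wells, 10 were CD44+ (1, 4 and 5 on the CD44+ plate and the 2 shared plates) and 3 were from the CD44- plate. The deepest 7 wells, each with at least 25000 transcripts, held 89.9% of all early transcripts, and the 18 low-yield wells held 5.39%, so pooled early values describe mostly those 7 cells.

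**Figure D2:**
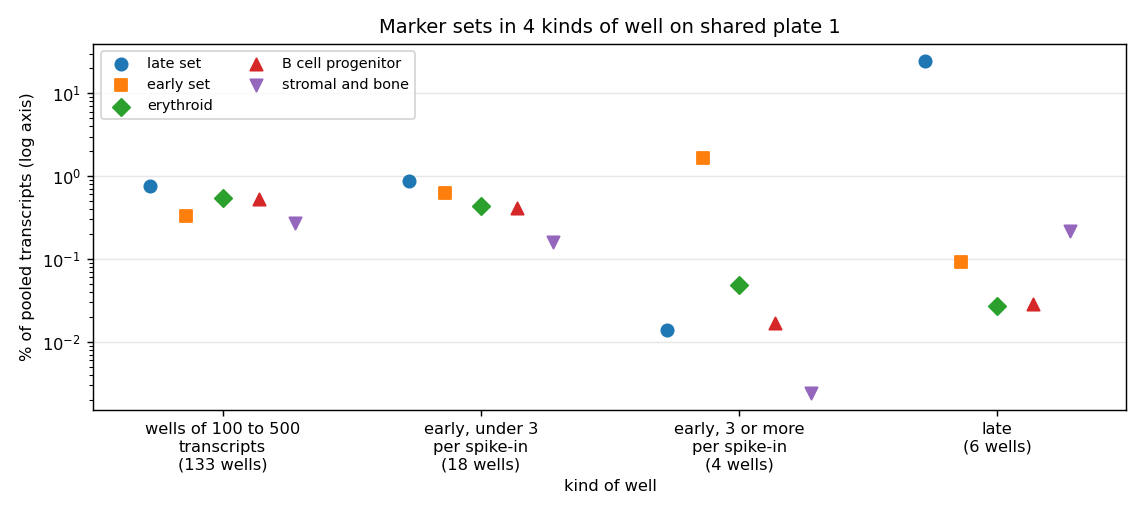
Points give the percent of pooled transcripts (log axis) in 5 marker sets for 4 kinds of well on the first shared plate. Early wells under 3 transcripts per spike-in transcript and wells of 100 to 500 transcripts hold all 5 sets at 0.162% to 0.880%, whereas the 4 other early wells hold 1.64% early set and 0.0139% late set.

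The 13 better-yielding early wells were not of 1 kind. In 3 of them, C16 and H24 of the second shared plate and E22 of the CD44+ plate, the primary granule genes stood without F13a1, Irf8, Csf1r or Ccr2. Irf8 is a transcription factor of the monocyte and dendritic lines, Csf1r the receptor for macrophage colony-stimulating factor and Ccr2 the chemokine receptor by which monocytes leave the marrow. C16 held 551 Mpo, 310 Prtn3, 248 Elane and 202 Ctsg transcripts among 34658, with 57.4 of Ms4a3 and 29.1 of Nkg7, genes of granulocyte progenitors. E22 held 38.2 Elane and 22.1 Mpo transcripts among 2732, and H24 held 17 and 9.0 among 1098, so absence in these shallow wells was bounded by few counts. The most primary-granule transcripts by share, 3.79%, were in C16.

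Monocyte genes accompanied the proteases in most of the rest. The 4 wells of the first shared plate, B11, B18, D15 and H6, each held Irf8 (33.1, 29.1, 41.2 and 33.1 transcripts), Csf1r (34.1, 9.0, 12 and 16), Ccr2 (17, 11, 39.2 and 25.1) and F13a1 (91, 53.3, 45.2 and 63.5) beside 130 to 308 Mpo transcripts. E5 of the second shared plate had the same pattern with 35.2 Irf8, 17 Csf1r and 23.1 Ccr2 transcripts, and B19 had it at lower depth with 8.0, 3.0 and 3.0. The sum of Irf8, Csf1r, Ccr2, Ms4a6c and Ly86 was 26 to 36.3 per 10000 transcripts in these 6 wells and 0 to 7.32 in C16, H24 and E22. D10, the deepest early well with 65822 transcripts, lay between at 15.7. It held 51.3 Irf8 transcripts together with 33.1 Ms4a3 and 24.1 Nkg7, and only 2.0 of Csf1r. The progenitor antigen Cd34 was found in 6 early wells (E5 28.1 transcripts, B11 22.1, D10 16, H6 8.0, C16 2.0 and D15 2.0) and in 0 of 32 late wells.

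The 3 early wells of the CD44- plate differed from one another. G11 (2148 transcripts) held 16 Mpo, 13 Elane and 10 Prtn3, and also 54.4 transcripts of the adult beta globin listed as Beta-s. H10 (2526 transcripts) met the rule through 16 Ly6c2 and 4.0 F13a1 with 1.0 Elane and neither Mpo, Prtn3 nor Ctsg. E2 (627 transcripts) was led by genes of basophils and mast cells: 45.2 transcripts of Prss34, 15 of Mcpt8, 7.0 of Cpa3 and 3.0 each of Fcer1a and Gata2, against 4.0 of Ctsg, 2.0 of Mpo and 1.0 of Ly6c2. Prss34 and Mcpt8 encode basophil proteases, Cpa3 a mast cell and basophil carboxypeptidase and Fcer1a the alpha chain of the IgE receptor. Prss34 appeared in this 1 early well and in no late well.

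The 3 wells that met both rules also split. E8 and E24 of the second shared plate held 81.8 and 73.6 Elane transcripts beside 1590 and 380 of Camp and 1355 and 104 of Ngp, with Fcnb (ficolin B) at 141 and 19 and Chi3l3, a chitinase-like protein of immature neutrophils, at 227 and 11. Both also held Cebpe, the factor that drives secondary granule genes, at 12 and 2.0 transcripts. Neither held Irf8, Csf1r or Ccr2. F23 of the first shared plate instead held 132 S100a9 and 86.9 S100a8 transcripts with 8.0 Irf8, 7.0 Ms4a6c and 3.0 Ly86, 0 Camp and 1.0 Ngp. With 17.03 Lcn2 and 10.01 Retnlg transcripts these made up its late share of 5.72%.

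**Figure D3:**
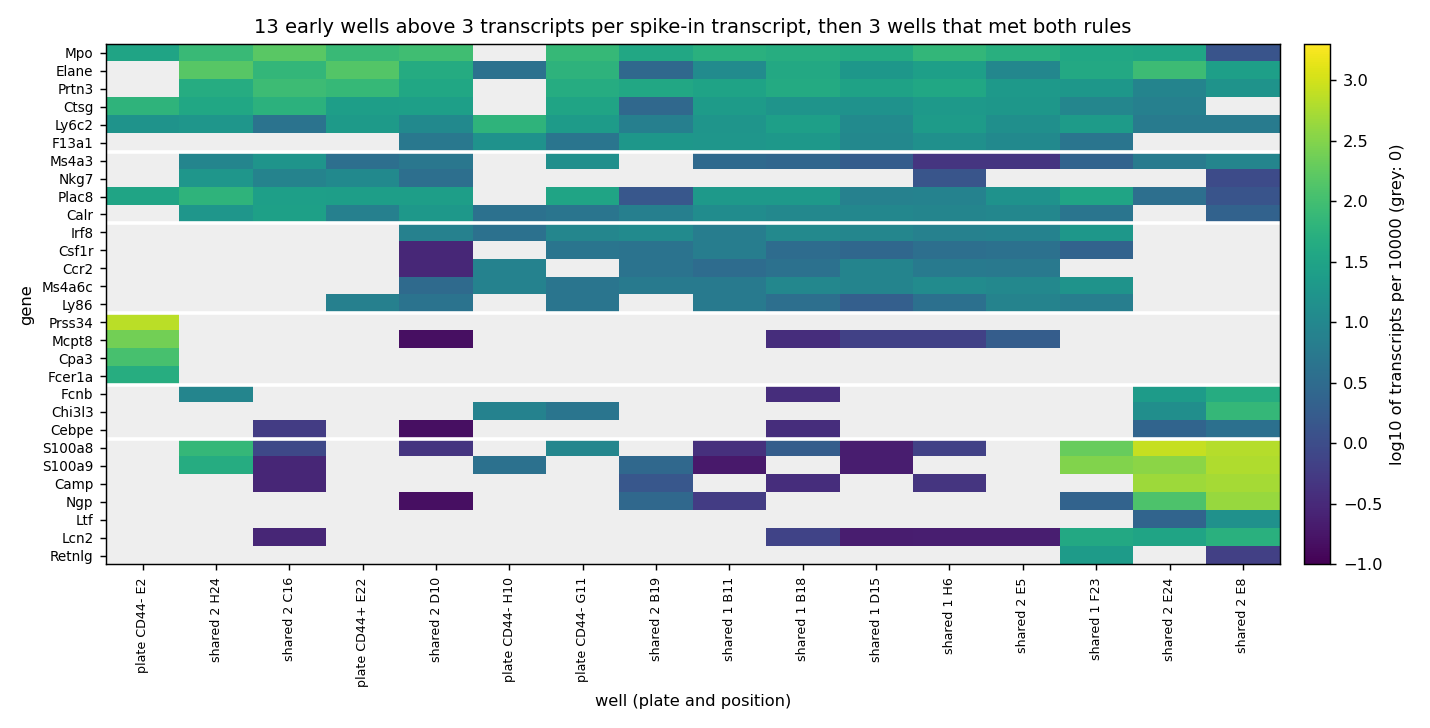
Columns are the 13 early wells with at least 3 transcripts per spike-in transcript, ordered by their summed monocyte genes, followed by the 3 wells that met both rules, and rows are genes grouped by role; colour gives log10 of transcripts per 10000 and grey marks 0. E2 stands alone with Prss34, C16, H24 and E22 lack Irf8 and Csf1r, and E8 and E24 share Camp, Ngp and Fcnb.

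The late wells ranged from a profile with granule genes and cycling transcripts to one with Retnlg and gelatinase. Retnlg made up 0% to 28.9% of the late set. At the high end N4 and J13 of the CD44+ plate had 28.9% and 22.2%, with 0 Camp, Ngp and Ltf, and held Mmp8, Mmp9, Il1b and no Chi3l3. N4, with 693 transcripts, also held 1 Csf1r, 2 Ccr2 and 2 Ms4a6c. The monocyte list took 2.16% of N4, the highest of the late wells (median 0.180%). At the low end E12 of the first shared plate held 626 Camp, 874 Ngp, 132 Chi3l3, 13 Cebpe, 17 Mki67 and 19 Top2a transcripts and 0 of Retnlg, Mmp8 and Mmp9. Mki67 and Top2a are transcribed in dividing cells, and Mmp8 (neutrophil collagenase), Mmp9, the chemokine receptor Cxcr2 and the formyl peptide receptor Fpr1 belong to later neutrophils. Across the 32 wells, the Retnlg share of the late set went with the summed share of Mmp8, Mmp9, Cxcr2, Il1b, Fpr1 and Trem1 (Spearman 0.757) and against that of Chi3l3, Cebpe, Fcnb, Mki67 and Top2a (Spearman -0.828). The genes in these sums are a selection from longer gene lists and were not fixed beforehand. Pearson values were smaller in size, at 0.611 and -0.544. These correlations describe wells of 4 plates that share libraries, and the Retnlg share also fell with depth (Spearman with total transcripts -0.436). The sum from Chi3l3 to Top2a rose with depth (0.389), and that from Mmp8 to Trem1 was at -0.071.

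The 12 wells in which Retnlg made up at least 5% of the late set, a limit chosen after the values were seen, held 6249 CPM of Mmp8, 3170 of Mmp9, 1225 of Cxcr2 and 867 of Il1b. The 20 others held 1234, 538, 327 and 35. Other members of the neutrophil lists varied. Fpr2 was at 1072 CPM in the 12 wells and 386 in the 20, Anxa1 at 3066 and 2836. Csf3r was at 102 and 93.4 CPM and Ltb4r1 at 153 and 315, the latter 2 from few transcripts. Chi3l3 went the other way, with 511 CPM in 3 of the 12 wells and 4391 in 17 of the 20. Fcnb and Top2a were listed at 0 in the 12 wells and present in 8 and 9 of the 20. Retnlg-rich wells came from the CD44+ plate (5), the CD44- plate (5) and the first shared plate (2), and none from the second shared plate, whose 4 late wells held 0 or 1 Retnlg transcripts and no Mmp8. Ptprc was at 612 and 620 CPM in the 2 groups. The median depth was 882 transcripts in the 12 wells and 2238 in the 20, and 5 wells of each group were of low quality. In H14 and C14 of the second shared plate calprotectin took only 10.47% and 16.2% of the late set, against 39.3% to 91.1% in the other 30 wells; both also yielded under 3 transcripts per spike-in transcript (1.5 and 0.989).

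**Figure D4:**
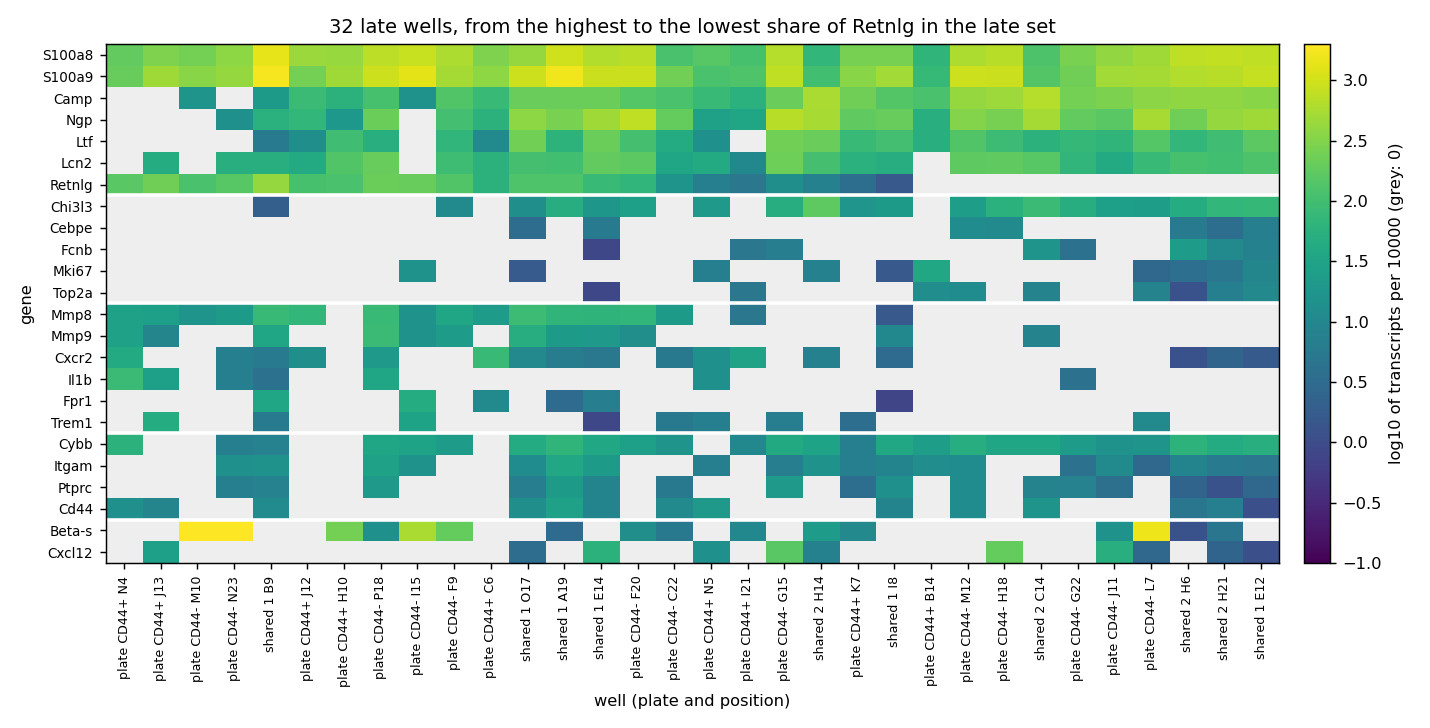
Columns are the 32 late wells from the highest to the lowest share of Retnlg in the late set, and rows are genes grouped by role; colour gives log10 of transcripts per 10000 and grey marks 0. Mmp8 is present in 11 of the 12 leftmost wells, Chi3l3 in 17 of the 20 others and Cebpe in 6 of those 20, and Beta-s is brightest in M10, N23 and L7 of the CD44- plate.

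In 12 of the 32 late wells the erythroid, B cell progenitor or stromal list alone reached 1% of transcripts. Erythroid markers took 22.9% of M10, 19.6% of N23, 15.8% of L7 and 6.53% of I15, all on the CD44- plate, mostly as Beta-s. Stromal markers took 4.81% of H18, 3.51% of G15 and 2.23% of J11 on the same plate. The pooled erythroid share of late wells was 5.40% on that plate and 0.0267%, 0.0949% and 0.551% on the other 3, while its wells of 100 to 500 transcripts held 2.59%. Whether these wells held more than 1 cell was not tested. Macrophage genes were near 0, at 0.0342% of late, 0.00410% of early and 0.0358% of other transcripts. Among the 13 genes, C1qa, C1qb, Cd163, Axl, Mertk and Spic were at 0 in every early and late well. The list had 6 genes above 0 in late and 5 in early wells, and 15 late and 11 early wells held at least 1 of its transcripts.

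Outside the 13 defining genes, 3817 genes had at least 20 transcripts in early and late wells together. Pooled levels of 706 genes (18.5%) were at least 4-fold higher in early wells, and of 170 (4.45%) at least 4-fold higher in late wells. The same direction held on both shared plates for 685 of the 706 and 135 of the 170, and on all 4 plates for 87 and 89. At least 1 plate had the opposite direction for 207 and 49. The shared plates held 184458 and 151342 of the 343833 early transcripts. They held 56101 and 18961 of the 105227 late ones, so agreement on them largely follows from the pooled call. In the lower class 152 of the 706 and 12 of the 170 had 0 transcripts, and for such genes the floor of 3 transcripts can bound the fold below 4. The late set itself fills a large part of the late total, and all genes had a median log2 ratio of 0.42 toward early. With the 13 genes left out of the totals the median was 0.23 and the counts were 568 and 237, so the early share of the calls went from 80.6% to 70.6%. In means over wells, which weight each well equally, the counts were 769 and 342, an early share of 69.2%. The ratios below should be read against that shift.

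Secondary and tertiary granule genes beyond the rule were higher in late wells, and primary granule genes were mixed. Of 18 further secondary and tertiary granule genes, 15 were at least 4-fold higher in late wells and 18 of 18 pointed that way (median log2 -3.49). Chi3l3 was at 3668 CPM in late and 20.4 in early wells, 1100001G20Rik (Wfdc21) at 2430 against 8.73, Mmp8 at 2169 against 55.3 and the oxidase subunit Cybb at 3631 against 338. Cd177, a neutrophil surface protein, was in 14 late wells at 723 CPM and in no early well, at least 82.9-fold higher. Of 15 primary granule and promyelocyte genes, 7 were at least 4-fold higher in early wells and 1, Fcnb, in late wells (median log2 1.41). Pooled levels of 10 of the 15 were higher in early wells, as were 2648 of all 3817 genes. In means over wells 5 were called early and 2 late. With wells that met both rules put in the class of the larger share, the calls were 5 and 3. Plac8 was at 1710 CPM in early and 66.5 in late wells, the chaperone Calr at 1321 against 200 and Ms4a3 at 377 against 19, the last from 2 late transcripts (ratio 19.9, 95% counting interval 5.40 to 166). Cst7, Ctsc, Gstm1 and Alas1 completed the 7.

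Among 15 mature neutrophil genes, 7 were at least 4-fold higher in late and 0 in early wells (median log2 -1.45). Fpr2 was in 13 late wells and Il1b in 7, each with 0 early transcripts, which puts them at least 58.9-fold and 21.8-fold higher. Selplg, Slpi and Ifitm2 had higher levels in early wells without meeting the rule for a call, and pooled levels of 5 of the 15 were higher there. Without the first shared plate the list kept 7 genes, with 1 call each way and a median of 0.31. Of 15 monocyte genes, 6 were higher in early wells by the same rule (Irf8, Ccr2, Ly86, S100a4, Tifab and Mpeg1), and the lectin Lgals3 in late wells (561 against 137 CPM). Irf8 was at 698 CPM in early wells and 19 in late wells (ratio 36.7, interval 10.1 to 305), and Ccr2 at 359 against 28.5 (12.6, 4.19 to 61.7). In means over wells 8 of the 15 were higher in early wells, and 1 reached 4-fold there. Most wells with monocyte genes on the 2 shared plates are among the deepest early wells, so the pooled values lean on them.

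Of 17 transcription factors counted, Irf8, Cebpa and Myc were at least 4-fold higher in early wells, and Cebpe, Id2, Ets1 and Jun in late wells. The 3 early calls are a share near that of all genes. The 4 late calls became 2 of 15 without low-quality wells and 0 of 7 without the first shared plate. Cebpa was found in 8 early wells (29 transcripts) and in 0 of 32 late wells, which bounds its fold only at 2.96 or more. Cebpe was found in 3 early and 7 late wells at 11.6 against 304 CPM. PU.1, as Sfpi1, differed little, at 303 CPM in early and 485 in late wells. The NADPH oxidase list gave only Cybb among 7 genes, although Cyba (411 against 1056 CPM), Ncf1 (326 against 1161) and Rac2 (499 against 1123) had the same direction.

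Ribosomal protein and S phase genes took larger pooled shares of early than of late wells, whereas G2 and mitosis genes did not. In the other 426 wells the pooled ribosomal and S phase shares stood nearer the early wells. All 72 ribosomal protein genes had a higher pooled level in early wells (median log2 1.53), and they made up 14.6% of early and 4.72% of late transcripts. In the other 426 wells the pooled ribosomal share was 12.4%. In the 13 better-yielding early wells the share per well was 11.3% to 19.1%, in the 18 low-yield wells 6.40% to 11.5%, and in late wells 0.924% to 15.5% (median 3.66%). The 2 ranges of early and late wells overlapped. Npm1 and Ncl, nucleolar proteins of ribosome assembly, were at 1949 and 1040 CPM in early and 295 and 105 in late wells. The spermidine synthase Srm was in 15 early and 0 late wells. Of 24 S phase genes, 9 were at least 4-fold higher in early wells, among them the helicase subunits Mcm3, Mcm6 and Mcm7, and 23 of 24 had that direction (median log2 1.13), as did 2648 of all 3817 genes. Without the first shared plate 4 of 17 S phase genes were called and 12 of 17 had that direction, with a median of 0.65 against 0.61 for all genes. The S phase list took 0.564% of early, 0.220% of late and 0.574% of other transcripts. Its median per well was 0.468%, 0.0808% and 0.191%, so by medians the other wells stood nearer the late wells. Of 13 G2 and mitosis genes, 0 were at least 4-fold higher in early and 1, Ube2c, in late wells (median log2 -0.33), with Mki67 at 312 and 323 CPM. That list took 0.286% of early, 0.396% of late and 0.597% of other transcripts. Of 10 immediate early genes, which dissociation can induce, 6 were at least 4-fold higher in late wells, among them Nfkbia (428 against 72.8 CPM) and Klf6 (333 against 46.5). Within plates the list took 0.146% of early and 0.560% of late transcripts on the CD44+ plate, and 0.4717% and 0.4724% on the CD44- plate. It took 0.0331% and 0.141% on the first shared plate, and 0.0549% and 0.0791% on the second. The single-sort plates held 9 and 13 late but 1 and 3 early wells, so the pooled ratio also mixes plates. Low-quality wells, defined by Kcnq1ot1 or mitochondrial transcripts, numbered 10 of 32 late and 0 of 31 early wells, and without them 3 of 7 immediate early genes and 7 of 24 S phase genes were called.

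**Figure D5:**
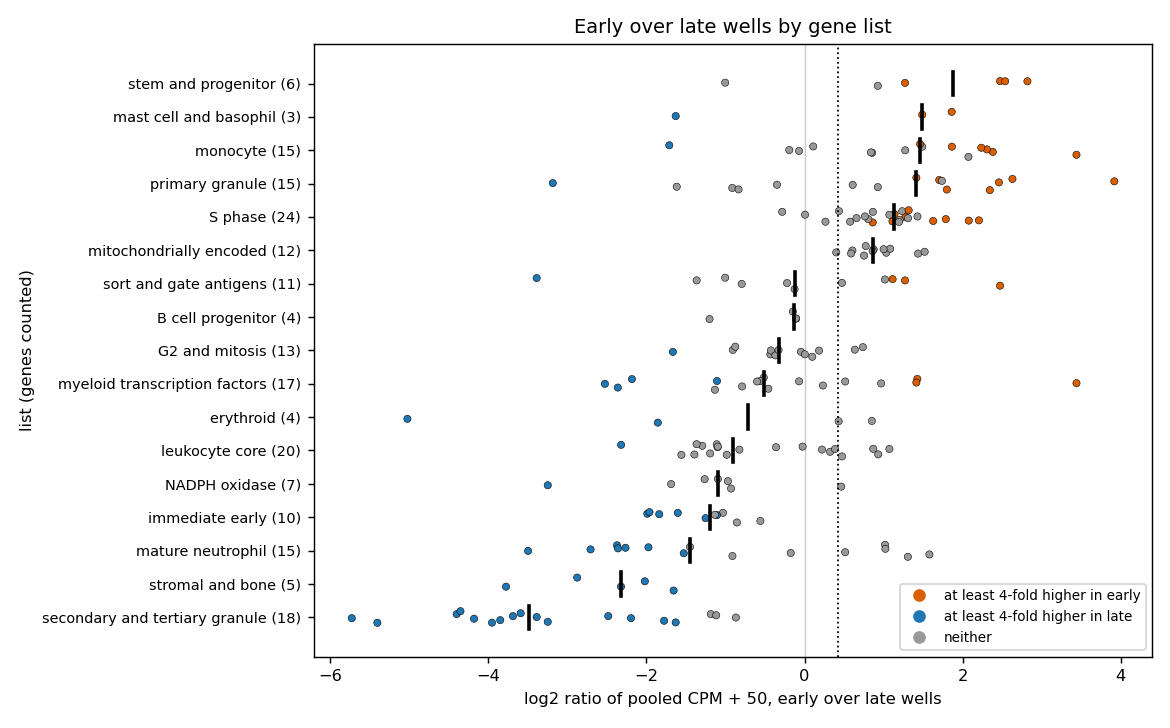
Points are genes of each list with at least 20 early and late transcripts together, placed by the log2 ratio of pooled CPM + 50 in early over late wells; black bars are list medians and the dotted line is the median of all 3817 genes at 0.42. Secondary and tertiary granule genes lie wholly on the late side, whereas primary granule and monocyte genes have medians of 1.41 and 1.46.

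Transcripts of the sort and gate antigens were measured in the same wells. Ptprc, which encodes CD45, was found in 17 of 32 late wells at 618 CPM and in 14 of 31 early wells at 210 CPM, against 68.9 CPM in the 426 other wells. After thinning each well to 500 transcripts the expected share of wells with Ptprc was 20.1% for late and 15.9% for early wells, the latter made of 8.40% in the 13 better-yielding and 21.3% in the 18 low-yield wells. By plate the late wells had 91.7, 623, 857 and 211 CPM (CD44+ plate, CD44- plate, first and second shared plate). Of 20 leukocyte genes that include Ptprc, 0 were at least 4-fold higher in early wells and 1, Itgb2, in late wells. That late share is near the 4.45% of all 3817 genes. Pooled levels of 7 of the 20 were higher in early wells. The 20 genes took 1.28% of late, 0.780% of early and 0.155% of other transcripts. Itgam, the CD11b chain, was at 990 CPM in late and 49.4 in early wells. Pecam1 was in 7 early wells (58.2 CPM) and 0 late wells, at least 2.04-fold higher. Itgav, which encodes the CD51 chain by which the cells were gated out, was in 4 early and 4 late wells with 4.0 and 7.0 transcripts in all. Cd44 was at 651 CPM in the 17 CD44+ late wells and 585 in the 15 CD44- late wells, and was present in 10 and 4 of them.

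The sort was not used to choose the wells, so their shares could be tested between sorts. Myeloid wells made up 10.3%, 11.7% and 11.8% of the wells with at least 500 transcripts in the 3 CD44+ libraries and 19.5%, 33.3% and 0% in the 3 CD44- libraries. The CD44- values lie on both sides of the CD44+ values. The means were 11.3% ± 0.845 (SD, n = 3) and 17.6% ± 16.7 (SD, n = 3), with p = 0.7 in a two-sided exact permutation test and 0.9 after adjustment over 3 comparisons; the smallest p that 3 against 3 can give is 0.1. The library without myeloid wells held 61 wells, and 0 of 61 allows a share of up to 4.92% for counting error. Late wells made up 9.28%, 3.60% and 4.30% of CD44+ and 15.9%, 4.17% and 0% of CD44- wells (exact permutation p = 0.9, adjusted 0.9). Early wells made up 1.03%, 7.21% and 5.38% of CD44+ and 3.66%, 29.2% and 0% of CD44- wells (exact permutation p = 0.9, adjusted 0.9). The 29.2% was the first shared plate, where all 14 early CD44- wells were of low yield. Without wells of low yield the early shares were 1.06%, 5.80% and 6.17% in CD44+ and 4.05%, 0% and 0% in CD44- libraries, which turned the mean difference from -6.40 to 2.99 percentage points (exact permutation p = 0.2).

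Within the myeloid wells, transcripts were summed per library, and the sums of the 2 sorts were tested in edgeR (quasi-likelihood). One CD44- library had no myeloid wells, which left 3 CD44+ against 2 CD44- libraries, of 13634, 212596, 209201, 24564 and 32283 transcripts. Of 473 genes tested, among them the 13 that chose the wells and for which no p is given, 0 (0.0%) passed an adjusted p of 0.05 and 66 had an unadjusted p under 0.05. Malat1, a nuclear RNA, had the smallest p: 880, 786 and 612 CPM in CD44+ and 2036 and 3037 in CD44- libraries, a log2 difference of -2.15 ± 0.40 (SE; edgeR adjusted p = 0.287). The groups did not overlap for Malat1, yet the difference failed the correction. Cybb was at 734, 1059 and 1047 against 1955 and 2355 (-1.54 ± 0.33, edgeR adjusted p = 0.287), and Ptprc at 293, 278 and 196 against 489 and 868 (-1.88 ± 0.47, edgeR adjusted p = 0.2998). The libraries also differ in makeup, since the CD44+ libraries held 10 of the 13 better-yielding early wells and the 3 wells that met both rules.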

How the data were processed

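Values are expected counts deposited by the authors: transcripts per gene and well estimated from molecular identifiers, with no scaling. The submitters' processing notes name BWA (0.7.15) and mm10. Counter, annotation and strand use were not given in the sources used here. All 796931 values above 0 returned to whole numbers (within 0.01) when a saturation correction for 4096 identifiers was undone, which added 2.32% to the total. Wells were taken to run along rows (16 rows, 24 columns). No label states this; spike-ins of columns 22 to 24 were 42.2 and 59.4 times lower on the shared plates, a pattern that this order gives. The sorts of those plates rest on it.

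The members and gene lists were chosen with earlier results of these data known. Genes are named if they define the classes, stand among the 12 largest differences each way, or belong to a list with at least 10 transcripts. Called means at least 4-fold in pooled CPM with the same direction in the mean over wells. Ratios on a log2 scale add 50 CPM. Sums were rounded and tested with edgeR 4.0.16 (TMM, filterByExpr, no block, Benjamini-Hochberg over all genes tested) in R 4.3.3; DESeq2 1.42.0 was an alternative. Each SE is the log2 difference divided by the square root of F. Low quality means Kcnq1ot1 at 2% or mitochondrial transcripts at 50% or more. No doublet caller was run on the sorted single cells. Scripts were tested on simulated data. Same-numbered libraries (1 plate, or 2 plates of a pair) correlated at 0.243 and 0.258 in their deviations; the 2 CD44- libraries mirror each other, so these values are partly arithmetic. Libraries 2 share a plate per the labels. Intervals and limits cover counting error only.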

Additional observations from a re-analysis of the deposited data

Results flagged for a closer look

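Wells with under 500 transcripts, which entered neither class and no test, held transcripts of both sets. The late set made up 0.976% of their transcripts on the CD44+ plate, 1.80% on the CD44- plate, 0.765% on the first shared plate and 0.714% on the second. The early set made up 0.0217%, 0.0173%, 0.319% and 0.137% on the same plates. These 8 values were noted because they exceed what a count of 0 would allow and lie outside the wells analysed. The early share is highest on the plate that held the 18 early wells of low yield.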

How the results depend on the processing

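Counts of genes at least 4-fold apart stayed within 1.5 times of 706 and 170 except in these cases. Means over wells gave 342 on the late side. Thinning every well to 500 transcripts left 176 genes and gave 25 and 20. Leaving out 1 plate gave 342 to 786 on the early side and 68 to 161 on the late side, lowest without the first shared plate for both. Beta-s turned to the early side (log2 0.48) without late wells with at least 1% of other lineages, an alternative added after the data were seen, like that on yield. Of 2278 checks of single genes, 57 moved by over the set range and 1 reversed; the cause was not tested.

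The difference in the share of myeloid wells, CD44+ minus CD44-, was -6.33 points, and turned to 1.56 with stricter limits (late 5%, early 1%) and -12.6 with looser ones (late 2%, early 0.25%). Leaving out 1 library gave -15.1 to 1.53, positive without CD44- replicate 2. For early wells stricter limits gave 2.52, looser ones -13.3, leaving out wells of low yield gave 2.99, and leaving out 1 library gave -11.9 to 2.71, again positive without CD44- replicate 2. For late wells leaving out wells of low yield gave -9.47, and leaving out 1 library gave -4.28 to 3.64, positive without CD44+ replicate 2 (0.116) and CD44- replicate 1. For myeloid, early and late wells, at least 1000 transcripts gave -4.45, -2.81 and -2.76, and leaving out low-quality wells gave -3.90, -5.50 and -0.0006. With the pair as a block, exact sign flips gave p = 0.75 for each of the 3 shares.

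In edgeR the replicate block called 0 genes and 34 had an unadjusted p under 0.05, and it changed no call. DESeq2 called 1 gene lower in CD44+ (Igfbp5, with 153 at an unadjusted p under 0.05), no filter 7, early wells alone 1 (Beta-s), late wells alone 2 (Beta-s and Igfbp5, against the CD44- plate only, so plate and sort cannot be told apart), and leaving out wells of low yield 14. Leaving out 1 library gave 0 to 2 higher and 0 to 13 lower: 2 and 11 without CD44+ replicate 1, 0 and 11 without CD44- replicate 1, 0 and 13 without CD44- replicate 2. The 2 higher genes were Mpo and Prtn3, and Ltf was among the 11 lower without CD44- replicate 1. These genes chose the wells, so their calls give no test of the sort. Where 1 CD44- library was left, its spread was taken to equal that of the others. Plate and sort cannot be told apart there. The same holds for leaving out wells of low yield. CD44- replicate 2 then kept 2 myeloid wells, too few for the fit, and only the CD44- plate stood for CD44-. The smallest library held 13634 transcripts.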
